A study of Rattus norvegicus with 15 samples.

Results

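The endoplasmic reticulum chaperones, folding enzymes and translocation proteins were described here as 42 genes in the liver of rats fed soy isoflavones. A probe set entered if the array's annotation named only 1 gene, a member, and each gene was represented by the probe set with the highest mean over all 15 arrays. All 42 members were on the array, and all 42 passed a filter that kept the 18625 brightest of 31042 probe sets, among 10745 genes that passed. Passing was judged on the mean over all arrays and not on any diet.

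The animals were male Sprague-Dawley rats that entered the experiment at 4 weeks of age, were adapted for 5 days and then ate their diet for 14 days. One diet held 2 g/kg of genistein, another 2 g/kg of daidzein, and the control diet held no isoflavone. All 3 diets shared a base with 200 g/kg of casein and 100 g/kg of palm oil, which the control rats therefore also ate. Genistein and daidzein are soy isoflavones; genistein carries an additional hydroxyl group on its A ring, and the doses and times were matched. Liver RNA was measured on 1-channel Affymetrix arrays, 5 per diet, which the titles call biological replicates, and arrays are called here by diet and title number. In some arrays the number in the description differs from that in the title, and the description of genistein 3 ends in letters whose meaning is not stated.

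The endoplasmic reticulum (ER) receives nearly all proteins that a cell secretes. A growing chain is threaded through the SEC61 channel, its signal peptide is removed by signal peptidase, and HSP70-type, disulfide-forming and sugar-binding chaperones fold it before it leaves, while misfolded chains are returned to the cytosol for degradation. The liver makes most plasma proteins, so this machinery is abundant in hepatocytes, and the unfolded protein response, through the factors ATF6 and XBP1, raises its genes when unfolded chains accumulate.

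Levels are given on a rebuilt log2 scale, quantile normalized between arrays, whose zero is arbitrary: the median of all probe sets was 0.11 and that of the tested ones 0.91. A log2 difference of 1 is a 2-fold difference, and the scale rests on an inference from the values. Levels of different genes are not comparable, since each probe set has its own brightness.

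Daidzein 5 stood apart from the other arrays in genes of the exocrine pancreas. All 6 acinar markers were high in it, with log2 levels of 7.59 for the trypsinogen gene Prss1, 7.15 for the amylase gene Amy2a3, 6.93 for Pnlip, 5.91 for Cpa1, 5.86 for Cela1 and 5.63 for Cel. The summed level of the list was 9.29 in daidzein 5 and at most 3.81 in the other 14 arrays. Hepatocyte markers were abundant in every array, with a summed log2 level between 10.99 and 11.04. Alb had the same log2 level, 9.29, in every array, because quantile normalization gives the highest ranks equal values. The narrow summed range is thus largely set by the normalization and cannot measure hepatocyte content. The summed level of 6 stellate cell markers was 5.60 to 5.81 in controls, 5.33 to 5.65 with daidzein and 5.67 to 5.82 with genistein, so the isoflavone groups did not overlap in it. Col3a1 was the brightest of the 6 and weighs most in this sum. With genistein against control 5 of the 6 were higher and Acta2 was lower. Between the isoflavones 5 of 6 stellate, 4 of 5 Kupffer cell or macrophage and all 4 endothelial markers tested were higher with genistein. The part of such markers in the members' differences was not tested. The log2 difference between the 3' and 5' control probe sets of Gapdh was 0.00 to 0.08 in controls, -0.06 to 0.03 with daidzein and -0.06 to 0.10 with genistein, and that of beta-actin 0.88 to 1.18 over all diets; their part was not tested either. In whole liver, fewer cells of a type and less RNA per cell cannot be told apart.

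With daidzein most members lay a little above control, with genistein most lay a little below, and single members differed by at most a fraction of a log2 unit. Against control, 35 of 42 members were higher with daidzein, with a median log2 difference of 0.11. With genistein 31 of 42 were lower, with a median log2 difference of -0.08. Between the isoflavones 38 of 42 were lower with genistein, with a median log2 difference of -0.19. The median over all 10745 genes was -0.00 in both comparisons with control and 0.00 between the isoflavones, with 49.0%, 49.0% and 50.4% of genes higher. These 3 comparisons share their arrays pairwise and are not independent of each other. Leaving out daidzein 5 gave a median log2 difference of 0.16 against control, with 37 members higher, and of -0.20 for genistein against daidzein, with 38 lower. Leaving out daidzein 2 gave 0.08 against control, with 29 members higher and 13 lower, and -0.17 for genistein against daidzein, with 38 lower.

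**Figure D1:**
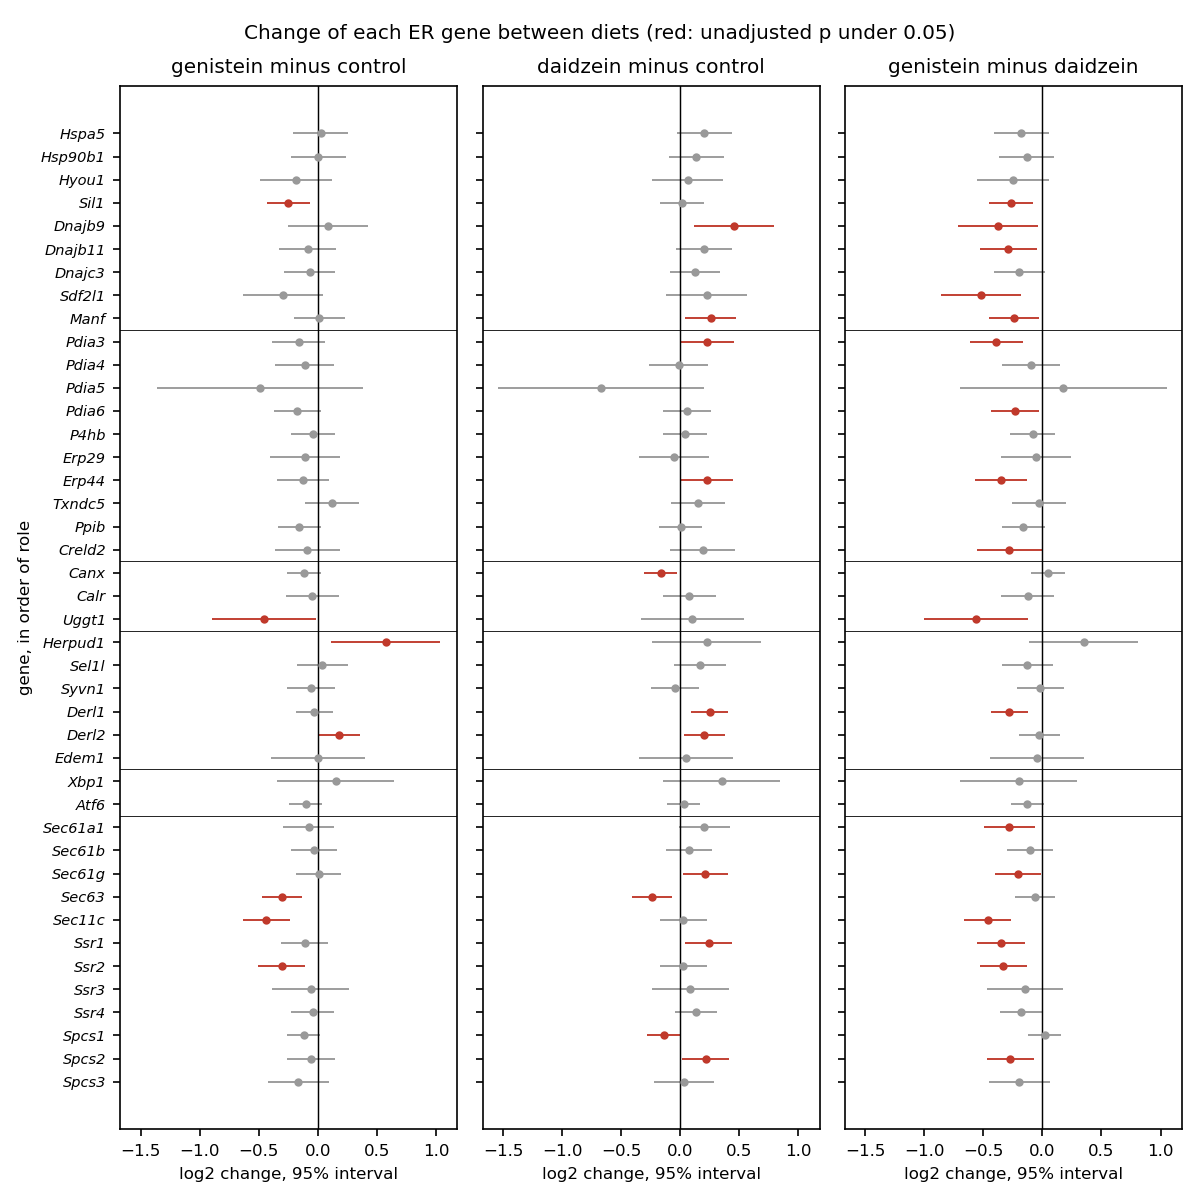
Log2 difference of each of the 42 members, with its 95% confidence interval, in the 3 comparisons of diets, ordered by role; the vertical line marks no difference and red marks an unadjusted p under 0.05. Points lie mostly left of the line for genistein minus control (31 of 42), mostly right of it for daidzein minus control (35 of 42) and left of it for genistein minus daidzein (38 of 42), with most intervals crossing it.

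No member's difference passed the adjusted threshold. With limma's test and Benjamini-Hochberg adjustment over 18625 probe sets, 0 of 42 members had an adjusted p under 0.05 for genistein against control, where 0.322% of all probe sets did. For daidzein against control 0 of 42 were called, against 0.0161% of all, and for genistein against daidzein 0 of 42, against 0.113%. The lowest adjusted p among members was 0.0656 for Sec11c with genistein against control, 0.382 for Derl1 with daidzein against control and 0.0746 for Sec11c between the isoflavones. Without adjustment, 7 members had a limma p under 0.05 for genistein against control, 2 higher and 5 lower, where 11.0% of all probe sets did (5.45% higher and 5.50% lower). Daidzein against control gave 12, of which 9 were higher and 3 lower, beside 8.25% of all (4.10% higher and 4.14% lower). Genistein against daidzein gave 17, all of them lower, beside 9.37% of all (4.64% higher and 4.73% lower). As shares of the members these were 16.7%, 28.6% and 40.5%, the first near the share of all probe sets and the other 2 above it. This was not tested, since members vary together and the comparisons share arrays. The shares are also not matched for precision: the median standard error was 0.10 log2 units for members and 0.12 for all genes tested. A smaller standard error lets a difference of the same size reach a lower p. The count for daidzein against control was 6 without daidzein 2, 7 without control 5 and 13 without daidzein 5. That between the isoflavones was 12 without genistein 2, 13 without daidzein 2 and 18 without daidzein 5. Both counts thus rested partly on single arrays.

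Groups whose 5 arrays did not overlap were few. For genistein against control it was Sec63, lower, beside 2.57% of all probe sets that did not overlap in either direction (1.21% higher and 1.35% lower). For daidzein against control these were Derl1, higher, and Canx and Sec63, lower, beside 1.88% of all (0.940% in each direction). For genistein against daidzein these were Sil1, Derl1 and Sec11c, all lower, beside 2.03% of all (0.966% higher and 1.06% lower). Standard errors of the log2 differences ran from 0.07 to 0.41 with a median of 0.10. The 95% confidence interval lay wholly within 0.5 log2 units of no difference for 35 members with genistein against control, for 36 with daidzein against control and for 28 between the isoflavones.

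The arrays of a diet were spread unevenly over the members. Relative to the control mean, the median log2 difference over the 42 members was 0.05, -0.07, 0.01, -0.01 and -0.02 in controls 1 to 5. The daidzein arrays stood at 0.08, 0.25, 0.12, 0.09 and -0.05 and the genistein arrays at -0.17, -0.17, -0.10, 0.00 and 0.05 on the same measure. Daidzein 2 was thus the highest of all 15 and daidzein 5, the array with the pancreatic genes, lay within the controls. Genistein 1 to 3 lay below every control, whereas genistein 4 and 5 lay within the controls. Daidzein 2 exceeded every control in 26 members and was the highest of its diet in 20, and daidzein 5 was the lowest of its diet in 21. Genistein 1 lay below every control in 22 members, genistein 2 in 21 and genistein 3 in 18, while genistein 4 did so in 9 and genistein 5 in 10.

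**Figure D2:**
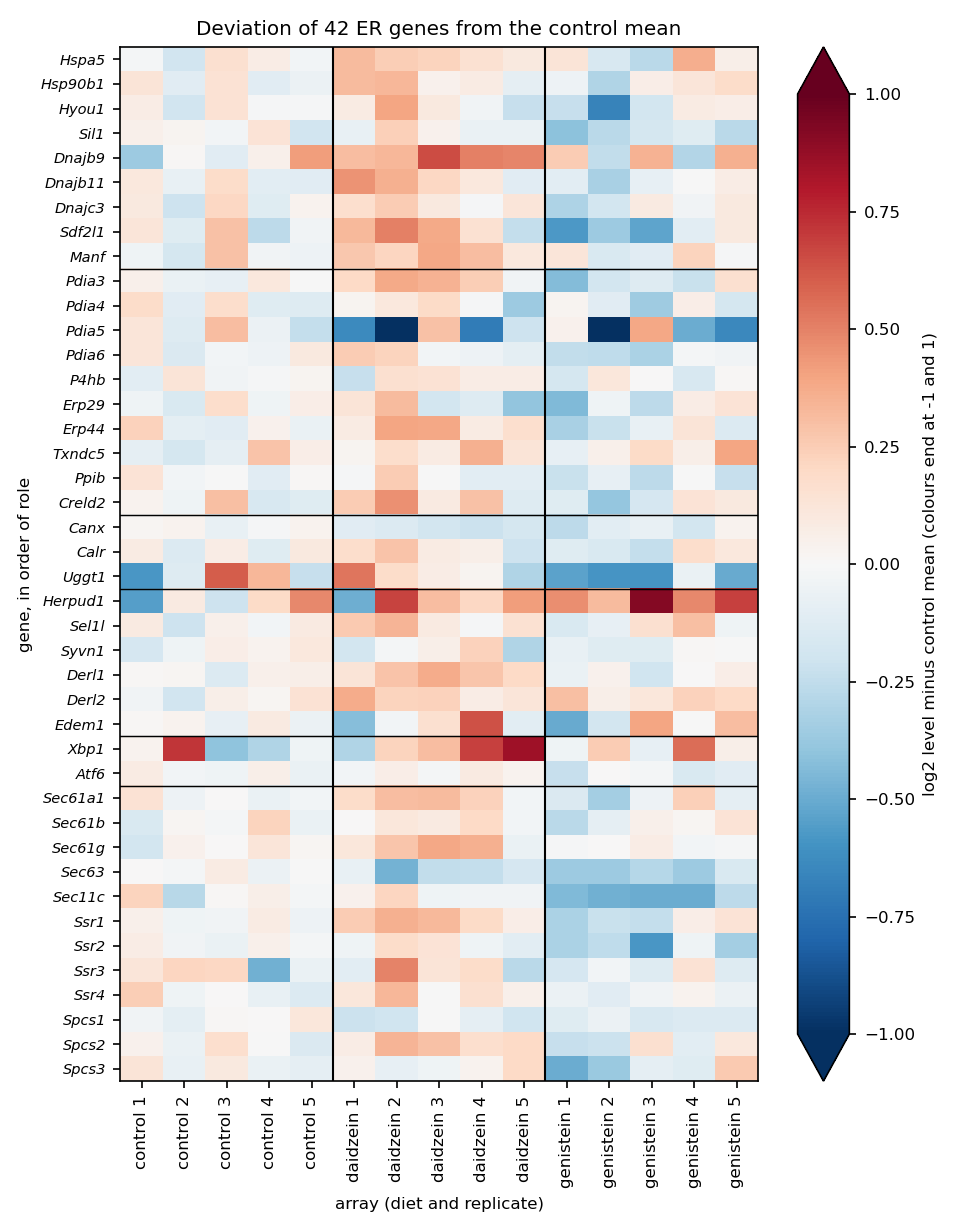
Log2 level of each member (rows, by role) in each of the 15 arrays (columns, by diet) minus the member's control mean. Daidzein 2 is the most uniformly raised column, with a median of 0.25, and genistein 1 and genistein 2 are the most uniformly lowered, each with a median of -0.17.

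**Figure D3:**
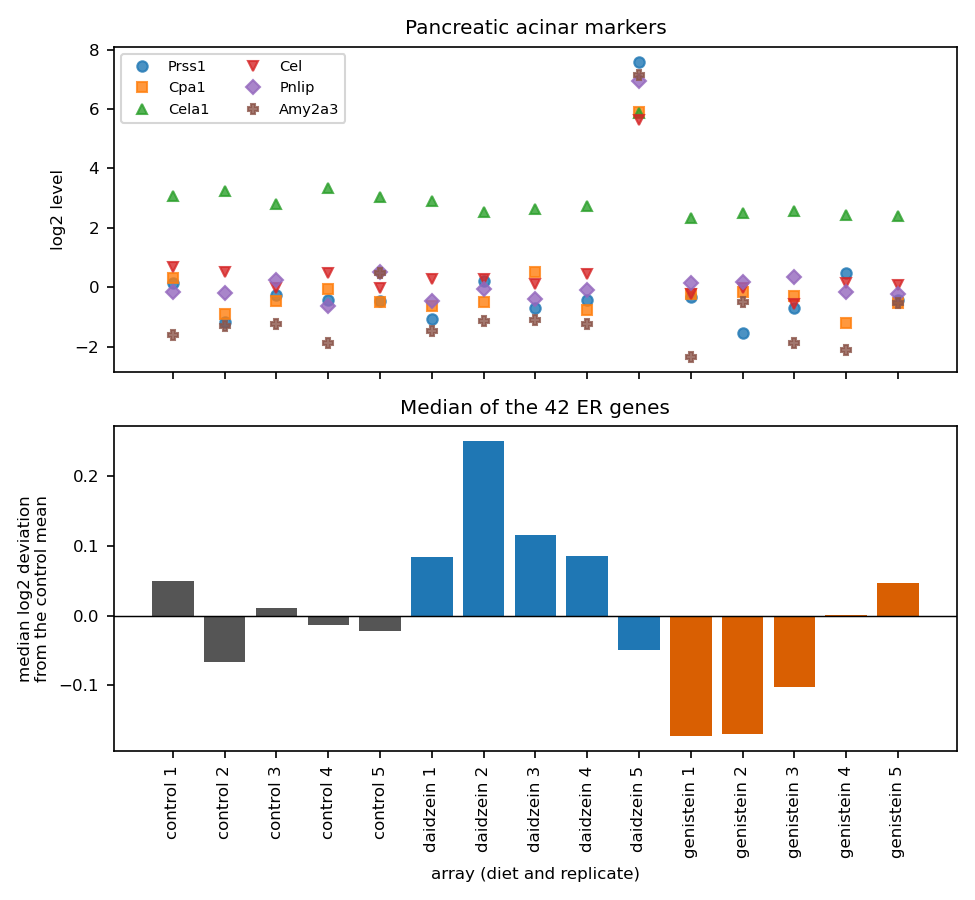
Top, log2 level of the 6 pancreatic acinar markers in each of the 15 arrays; bottom, median over the 42 members of the log2 level minus the control mean. Daidzein 5 alone has all 6 markers high (5.63 to 7.59) and its member median is -0.05, while the highest median is that of daidzein 2 (0.25).

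Sequence elements that ATF6 and XBP1 are known to bind were looked for in the members' promoters, and matches are shown because the unfolded protein response is known to act through such elements. RefSeq promoters of the rat build GRCr8, each 300 bases around a start site, were in the table for 36 of the 42 members; Manf, Pdia3, Pdia6, Derl1, Atf6 and Sec61a1 were not. Both strands were searched for the ER stress element ERSE (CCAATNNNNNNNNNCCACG), for ERSE-II (ATTGGNCCACG) and for the core that XBP1 and ATF6 bind (TGACGTGG). ERSE stood in 7 of the 36, namely Hspa5, Hsp90b1, Dnajc3, Creld2, Canx, Calr and Xbp1, and in 22 of all 33469 promoters (0.0657%). ERSE-II stood in Dnajb11, Herpud1 and Hyou1, and in 17 of all (0.0508%). The core stood in Hyou1 alone among members, overlapping an ERSE-II match there, and in 199 of all (0.595%). Together 10 of 36 members held a match, beside 237 promoters of the table (0.708%). That of Dnajb11 began 10 bases before the start site and ran past it. The windows of Dnajb11, Dnajc3 and Canx are not shown.
These windows are written 5′ to 3′ on the gene's strand with the match in capitals; a match that reads CGTGG first lies on the opposite strand.
Hspa5 ERSE, chr3:38452958-38453006, plus strand: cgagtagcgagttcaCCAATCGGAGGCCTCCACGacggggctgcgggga
Hsp90b1 ERSE, chr7:23012436-23012484, minus strand: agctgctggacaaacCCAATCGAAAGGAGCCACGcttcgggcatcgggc
Hsp90b1 ERSE, chr7:23012332-23012380, minus strand: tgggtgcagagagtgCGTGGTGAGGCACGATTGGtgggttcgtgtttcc
Hyou1 ERSE-II, chr8:53602679-53602719, plus strand: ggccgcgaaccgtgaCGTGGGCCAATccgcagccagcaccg
Hyou1 ERSE-II, chr8:53602779-53602819, plus strand: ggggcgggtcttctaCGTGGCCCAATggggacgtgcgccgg
Calr ERSE, chr19:40213120-40213168, plus strand: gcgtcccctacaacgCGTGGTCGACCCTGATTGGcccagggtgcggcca
Creld2 ERSE, chr7:121789224-121789272, plus strand: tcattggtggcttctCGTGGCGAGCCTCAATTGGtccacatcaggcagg
Xbp1 ERSE, chr14:84604543-84604591, plus strand: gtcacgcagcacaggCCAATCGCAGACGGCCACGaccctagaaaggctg
Herpud1 ERSE-II, chr19:10614806-10614846, minus strand: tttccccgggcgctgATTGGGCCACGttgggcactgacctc
The first base of the match lay 43 bases before the start site in Hspa5, 176 and 72 in Hsp90b1, 188 and 88 in Hyou1, 232 in Calr, 145 in Creld2, 65 in Xbp1 and 124 in Herpud1. The 10 members with a match had a median log2 difference of -0.06 with genistein against control, 0.16 with daidzein against control and -0.19 between the isoflavones. In the 26 with a promoter but no match these were -0.11, 0.06 and -0.16. In the 6 whose promoter could not be searched they were -0.09, 0.22 and -0.26. A match is a description of letters and shows no binding.

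The HSP70 and HSP90 system of the ER lumen had all 9 of its members higher with daidzein than control, with a median log2 difference of 0.20, and all 9 lower with genistein than daidzein, with a median of -0.25. With genistein against control 5 were lower, with a median log2 difference of -0.07. No member was called, and 2 of 9, 5 of 9 and 1 of 9 had an unadjusted limma p under 0.05 in these comparisons. In the same order 8.25%, 9.37% and 11.0% of all probe sets had such a p, and 1 of 9 is near the last share. Hspa5 encodes BiP, the HSP70 of the ER and the sensor-binding chaperone of the unfolded protein response. Its log2 level was 6.55, 6.37, 6.72, 6.64 and 6.54 in controls 1 to 5, 6.88, 6.81, 6.78, 6.71 and 6.66 in the daidzein arrays and 6.69, 6.41, 6.30, 6.93 and 6.62 in the genistein arrays. Daidzein 1 to 3 lay above every control, and the genistein arrays spread beyond the control range on both sides. Its log2 difference was 0.21 ± 0.11 (SE, limma adjusted p = 0.653) with daidzein against control and 0.02 ± 0.11 (SE, limma adjusted p = 0.969) with genistein. Hsp90b1 encodes GRP94, the HSP90 of the ER. Its log2 levels were 5.94, 5.70, 5.95, 5.70 and 5.75 in controls, 6.12, 6.14, 5.85, 5.89 and 5.72 with daidzein and 5.76, 5.50, 5.88, 5.93 and 5.99 with genistein, and the 3 diets overlapped. The log2 difference was 0.14 ± 0.11 (SE, limma adjusted p = 0.772) for daidzein and 0.00 ± 0.11 (SE, limma adjusted p = 0.995) for genistein against control.

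Among the co-chaperones, Sdf2l1, a subunit of the BiP folding complex, had log2 levels of 4.51, 4.28, 4.69, 4.13 and 4.36 in controls, 4.72, 4.90, 4.78, 4.55 and 4.16 with daidzein and 3.82, 4.03, 3.86, 4.29 and 4.49 with genistein. Genistein 1 to 3 lay below every control and every daidzein array, and daidzein 1 to 3 lay above every control, while daidzein 5 and genistein 4 and 5 were intermediate. Its log2 difference between the isoflavones was -0.52 ± 0.16 (SE, limma adjusted p = 0.247), and -0.63 without daidzein 5 (adjusted p = 0.156). Sil1, the nucleotide exchange factor of BiP, stood at log2 levels of 2.79, 2.76, 2.71, 2.88 and 2.55 in controls, 2.67, 2.98, 2.78, 2.67 and 2.67 with daidzein and 2.33, 2.47, 2.56, 2.62 and 2.47 with genistein. All genistein arrays lay below all daidzein arrays, and control 5 fell within the genistein range. The log2 difference of Sil1 was -0.27 ± 0.09 (SE, limma adjusted p = 0.284) between the isoflavones and -0.25 ± 0.09 (SE, limma adjusted p = 0.281) with genistein against control.

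Dnajb9, the J-domain protein ERdj4, is a target of XBP1 and a brake on the stress sensor IRE1. It had log2 levels of 2.31, 2.69, 2.56, 2.73 and 3.09 in controls, 2.99, 3.01, 3.33, 3.18 and 3.17 with daidzein and 2.93, 2.43, 3.03, 2.38 and 3.03 with genistein. Among the other 10 arrays, control 5 and genistein 3 and 5 reached the daidzein range. Its log2 difference with daidzein against control, 0.46 ± 0.16 (SE, limma adjusted p = 0.460), was the highest of the 42 members in that comparison. Dnajb11, another J-domain co-chaperone, differed by -0.29 ± 0.11 (SE, limma adjusted p = 0.417) on the log2 scale between the isoflavones, and by -0.37 without daidzein 5. Dnajc3, the kinase inhibitor and co-chaperone p58IPK, had a log2 difference of -0.20 and Hyou1, the large HSP70-like exchange factor, one of -0.25 between the isoflavones (limma adjusted p = 0.592 and 0.646). Manf, a secreted stress protein that binds BiP, had a log2 difference of 0.26 ± 0.10 (SE, limma adjusted p = 0.525) with daidzein against control.

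The disulfide isomerases and other folding enzymes were lower with genistein than daidzein in 9 of 10 members, with a median log2 difference of -0.13. Against control 9 of 10 were lower with genistein (median -0.12) and 7 of 10 higher with daidzein (median 0.05). No member was called, and an unadjusted limma p under 0.05 was found for 0 with genistein and 2 with daidzein against control and for 4 between the isoflavones. In the same order 11.0%, 8.25% and 9.37% of all probe sets had such a p. Pdia3, the isomerase ERp57 that works with calnexin and calreticulin, had log2 levels of 6.32, 6.20, 6.19, 6.37 and 6.27 in controls, 6.47, 6.65, 6.62, 6.52 and 6.24 with daidzein and 5.84, 6.08, 6.14, 6.05 and 6.43 with genistein. Daidzein 1 to 4 lay above every control and genistein 1 to 4 below every control, whereas daidzein 5 lay among the controls and genistein 5 lay above them. The log2 difference of Pdia3 between the isoflavones was -0.39 ± 0.11 (SE, limma adjusted p = 0.171), and -0.46 without daidzein 5 (adjusted p = 0.140). A second, dimmer probe set of Pdia3 gave a log2 difference of -0.28.

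Erp44, which retains immature proteins and their oxidases in the secretory pathway, stood at log2 levels of 3.72, 3.40, 3.37, 3.53 and 3.43 in controls, 3.57, 3.88, 3.88, 3.57 and 3.66 with daidzein and 3.16, 3.27, 3.41, 3.62 and 3.35 with genistein. Genistein 4 and control 1 overlapped the daidzein range, and genistein 1, 2 and 5 lay below every control. Its log2 difference was -0.35 ± 0.10 (SE, limma adjusted p = 0.230) between the isoflavones, and its other probe sets gave -0.34 and -0.21. P4hb, the classical protein disulfide isomerase, had log2 levels of 6.69, 6.92, 6.76, 6.78 and 6.82 in controls, 6.56, 6.95, 6.94, 6.87 and 6.87 with daidzein and 6.62, 6.91, 6.80, 6.63 and 6.80 with genistein. The diets overlapped, and its log2 difference was 0.04 ± 0.09 (SE, limma adjusted p = 0.924) with daidzein and -0.04 ± 0.09 (SE, limma adjusted p = 0.921) with genistein against control.

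Of the other folding enzymes, Pdia6 had a log2 difference of -0.23 ± 0.09 (SE, limma adjusted p = 0.452) and Creld2, a stress-induced isomerase, one of -0.28 ± 0.13 (SE, limma adjusted p = 0.522) between the isoflavones. Ppib, the peptidyl-prolyl isomerase cyclophilin B, differed by -0.16 on the log2 scale, and Pdia4, Erp29 and Txndc5 by -0.10, -0.05 and -0.03. Their limma adjusted p ran from 0.604 for Ppib to 0.968 for Txndc5. Pdia5 was the most variable member with either isoflavone. Its log2 levels were 4.15 to 4.69 in controls, 2.29 to 4.68 with daidzein and 2.64 to 4.77 with genistein, and the lowest arrays were daidzein 2 and genistein 2. Its log2 difference against control was -0.67 ± 0.41 (SE, limma adjusted p = 0.697) with daidzein and -0.49 ± 0.41 (SE, limma adjusted p = 0.732) with genistein.

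In the lectin cycle, calnexin and calreticulin hold glycoproteins that carry a trimmed sugar, and UGGT1 returns unfolded ones to them; 0 of the 3 members were called in each comparison. Canx, which encodes calnexin, had log2 levels of 4.95, 4.96, 4.85, 4.91 and 4.97 in controls, 4.81, 4.80, 4.74, 4.71 and 4.76 with daidzein and 4.67, 4.82, 4.85, 4.75 and 4.97 with genistein. All daidzein arrays lay below all controls, in the direction opposite to most members, and the genistein arrays overlapped both. The log2 difference was -0.16 ± 0.07 (SE, limma adjusted p = 0.546) with daidzein against control. The other probe sets of Canx gave log2 differences of -0.03 and -0.01, so they did not show the difference of the brightest one. Calr, which encodes calreticulin, stood at log2 levels of 6.11, 5.89, 6.10, 5.91 and 6.13 in controls, 6.20, 6.31, 6.11, 6.09 and 5.82 with daidzein and 5.91, 5.87, 5.79, 6.20 and 6.13 with genistein. The diets overlapped, with log2 differences of 0.08 ± 0.11 (SE, limma adjusted p = 0.880) for daidzein and -0.05 ± 0.11 (SE, limma adjusted p = 0.928) for genistein against control. Uggt1 varied widely among arrays, with log2 levels of 1.04 to 2.23 in controls, 1.32 to 2.16 with daidzein and 1.04 to 1.56 with genistein. Its log2 difference between the isoflavones was -0.56 ± 0.21 (SE, limma adjusted p = 0.381), the most negative of the 42.

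The ER-associated degradation members had a median log2 difference of 0.19 with daidzein against control, with 5 of 6 higher, and of 0.02 with genistein, with 4 of 6 higher. Between the isoflavones 5 of 6 were lower, with a median of -0.04, and 0 of 6 were called in each comparison, with 2, 2 and 1 at an unadjusted limma p under 0.05 for genistein, for daidzein and between them. In the same order 11.0%, 8.25% and 9.37% of all probe sets had such a p. Derl1 encodes derlin-1, a channel protein through which misfolded chains leave the ER. Its log2 levels were 4.86, 4.87, 4.71, 4.90 and 4.91 in controls, 4.98, 5.13, 5.22, 5.12 and 5.05 with daidzein and 4.78, 4.89, 4.65, 4.85 and 4.91 with genistein. Every daidzein array lay above every other array. The log2 difference was 0.25 ± 0.07 (SE, limma adjusted p = 0.382) with daidzein against control and -0.28 ± 0.07 (SE, limma adjusted p = 0.150) between the isoflavones. Another 2 probe sets of Derl1 gave log2 differences of -0.05 and 0.03 for daidzein against control, with -0.24 and -0.25 between the isoflavones. Their log2 differences with genistein against control were -0.29 and -0.22, where the brightest gave -0.03.

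Herpud1, a stress-induced protein that assembles the degradation complex, had a difference of the opposite sign to most members with genistein. It showed log2 levels of 4.14 to 5.17 in controls, 4.20 to 5.37 with daidzein and 5.01 to 5.61 with genistein, and its log2 difference with genistein against control was 0.57 ± 0.22 (SE, limma adjusted p = 0.333), the highest of the 42. Derl2, derlin-2, had log2 differences of 0.18 ± 0.08 (SE, limma adjusted p = 0.445) with genistein and 0.20 ± 0.08 (SE, limma adjusted p = 0.545) with daidzein against control, and its second probe set gave 0.14 and -0.06. Sel1l and Syvn1, the core of the HRD1 ubiquitin ligase, differed by 0.17 and -0.04 on the log2 scale with daidzein against control. Edem1, a lectin-like mannosidase of the pathway, had a log2 difference of 0.05 with daidzein and log2 levels of 4.85 to 5.91 there, against 5.20 to 5.37 in controls.

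**Figure D4:**
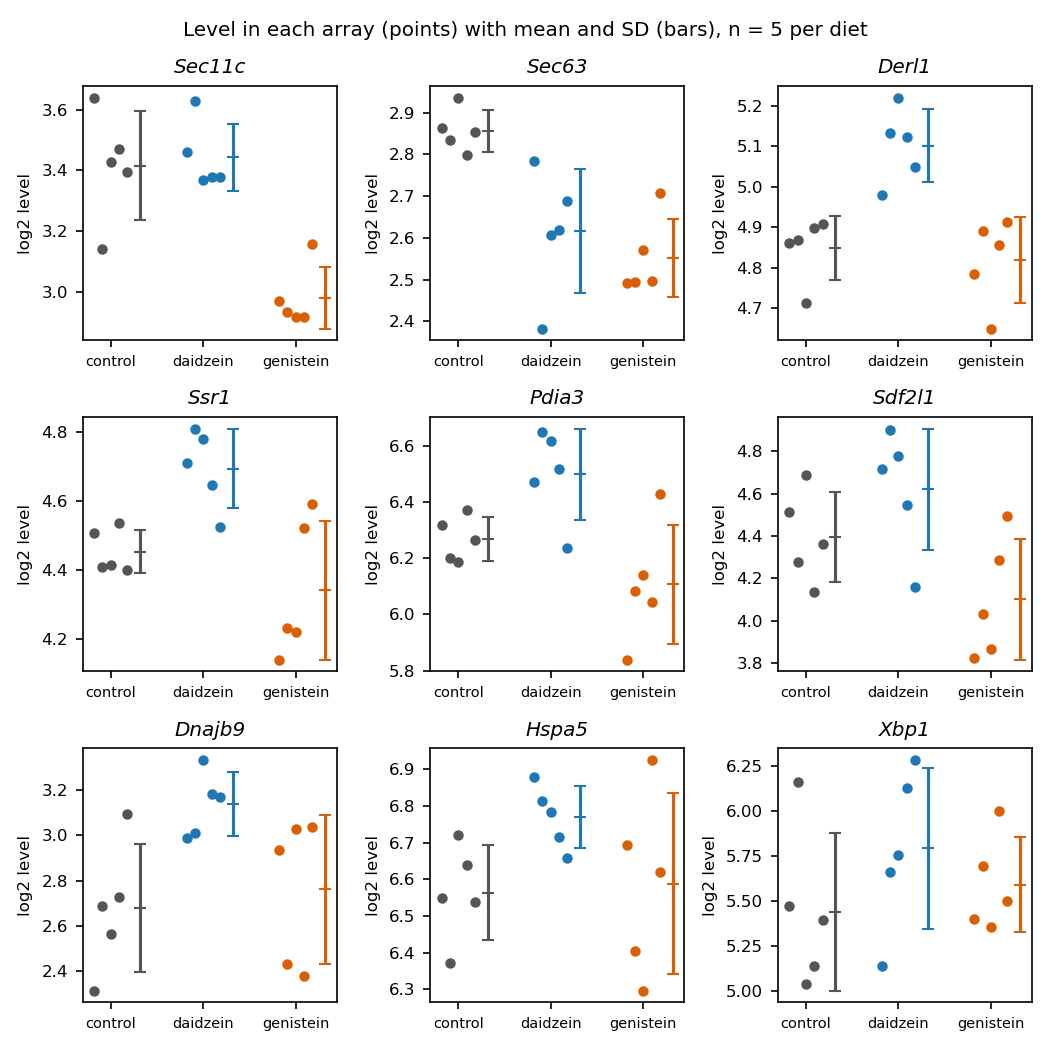
Log2 level of 9 members in each array (points, by title number within each diet) with the mean and SD of the 5 arrays (bars); the axes do not start at 0. Every daidzein array of Derl1 lies above all others (4.98 and higher), all controls of Sec63 lie above all isoflavone arrays (2.80 and higher), and 4 genistein arrays of Sec11c lie between 2.92 and 2.97.

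The transcription factors Xbp1 and Atf6 drive many of these genes, though both are regulated mainly after transcription, by splicing and by cleavage, which these probe sets do not report. Xbp1 had log2 levels of 5.47, 6.16, 5.04, 5.14 and 5.39 in controls, 5.14, 5.66, 5.75, 6.12 and 6.28 with daidzein and 5.40, 5.69, 5.36, 6.00 and 5.50 with genistein. The diets overlapped, with control 2 and daidzein 4 and 5 the highest arrays. Its log2 difference was 0.35 ± 0.23 (SE, limma adjusted p = 0.717) with daidzein and 0.15 ± 0.23 (SE, limma adjusted p = 0.881) with genistein against control, and the former was 0.23 without daidzein 5. Atf6 stood at log2 levels of 2.69, 2.58, 2.56, 2.66 and 2.54 in controls, 2.58, 2.67, 2.58, 2.69 and 2.64 with daidzein and 2.37, 2.61, 2.59, 2.45 and 2.49 with genistein. The 3 diets shared the log2 levels from 2.58 to 2.61. The log2 difference of Atf6 was -0.10 ± 0.07 (SE, limma adjusted p = 0.632) with genistein against control, and its second probe set gave 0.19.

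The translocon and signal peptidase members were lower with genistein than daidzein in 11 of 12, with a median log2 difference of -0.20. With genistein against control 11 of 12 were lower (median -0.09) and with daidzein 10 of 12 higher (median 0.08). The unadjusted limma p was under 0.05 for 3 of the 12 with genistein and 5 with daidzein against control and for 6 between the isoflavones, with 0 called. In the same order 11.0%, 8.25% and 9.37% of all probe sets had such a p. Sec11c, a catalytic subunit of signal peptidase, had the lowest p of all members. Its log2 levels were 3.64, 3.14, 3.43, 3.47 and 3.39 in controls, 3.46, 3.63, 3.37, 3.38 and 3.38 with daidzein and 2.97, 2.93, 2.92, 2.92 and 3.16 with genistein. The genistein arrays all lay below the daidzein arrays and, except for genistein 5 against control 2, below the controls. The group means were 3.41 ± 0.18, 3.44 ± 0.11 and 2.98 ± 0.10 (log2 level, mean ± SD, n = 5) for control, daidzein and genistein. Its log2 difference was -0.44 ± 0.09 (SE, limma adjusted p = 0.0656) with genistein against control, -0.46 ± 0.09 (SE, limma adjusted p = 0.0746) between the isoflavones and 0.03 ± 0.09 (SE, limma adjusted p = 0.953) with daidzein against control. The limma adjusted p with genistein against control was 0.0444 without control 2 and 0.0493 with 16 added to the intensities, and ranged from 0.0444 to 0.173 over the arrays left out.

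Sec63 encodes a J-domain protein of the translocon that recruits BiP to the channel. It had log2 levels of 2.86, 2.83, 2.94, 2.80 and 2.85 in controls, 2.79, 2.38, 2.61, 2.62 and 2.69 with daidzein and 2.49, 2.49, 2.57, 2.50 and 2.71 with genistein. All 10 isoflavone arrays lay below all 5 controls. Its log2 difference was -0.31 ± 0.08 (SE, limma adjusted p = 0.125) with genistein and -0.24 ± 0.08 (SE, limma adjusted p = 0.429) with daidzein against control, comparisons that share the controls. The other 3 probe sets were dimmer and gave log2 differences of -0.13, -0.10 and -0.33 with genistein and 0.04, -0.14 and -0.53 with daidzein. Sec61a1, the pore-forming subunit of the channel, stood at log2 levels of 4.43, 4.23, 4.28, 4.21 and 4.26 in controls, 4.47, 4.59, 4.60, 4.51 and 4.25 with daidzein and 4.14, 3.94, 4.23, 4.52 and 4.20 with genistein. Daidzein 1 to 4 lay above every control and daidzein 5 among them, while genistein 1, 2 and 5 lay below every control. The log2 difference of Sec61a1 was 0.20 ± 0.10 (SE, limma adjusted p = 0.634) with daidzein against control and -0.28 ± 0.10 (SE, limma adjusted p = 0.377) between the isoflavones, and its second probe set gave 0.35 and -0.28. The small channel subunits Sec61b and Sec61g had log2 differences of 0.07 and 0.21 with daidzein against control (limma adjusted p = 0.871 and 0.564).

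The translocon-associated protein complex, encoded by Ssr1 to Ssr4, helps some chains enter the channel. Ssr1 had log2 levels of 4.51, 4.41, 4.41, 4.53 and 4.40 in controls, 4.71, 4.81, 4.78, 4.65 and 4.52 with daidzein and 4.14, 4.23, 4.22, 4.52 and 4.59 with genistein. Daidzein 1 to 4 lay above every control and genistein 1 to 3 below every control. The log2 difference of Ssr1 was -0.35 ± 0.09 (SE, limma adjusted p = 0.165) between the isoflavones and 0.24 ± 0.09 (SE, limma adjusted p = 0.526) with daidzein against control, while its dimmer probe set gave -0.28 and -0.19. Ssr2 stood at log2 levels of 4.21, 4.10, 4.07, 4.19 and 4.12 in controls, 4.09, 4.32, 4.27, 4.10 and 4.03 with daidzein and 3.82, 3.88, 3.55, 4.09 and 3.80 with genistein. All genistein arrays except genistein 4 lay below every control and daidzein array. Its log2 difference was -0.31 ± 0.09 (SE, limma adjusted p = 0.205) with genistein against control and -0.33 ± 0.09 (SE, limma adjusted p = 0.197) between the isoflavones. Ssr3 and Ssr4 had log2 differences of -0.15 and -0.18 between the isoflavones (limma adjusted p = 0.841 and 0.533).

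Of the accessory subunits of signal peptidase, Spcs2 had log2 levels of 4.87, 4.77, 5.00, 4.83 and 4.69 in controls, 4.91, 5.17, 5.12, 5.00 and 5.03 with daidzein and 4.60, 4.61, 4.99, 4.73 and 4.94 with genistein. Daidzein 2, 3 and 5 lay above every control, and genistein 1 and 2 lay below every control. The log2 difference of Spcs2 was -0.27 ± 0.09 (SE, limma adjusted p = 0.333) between the isoflavones and 0.22 ± 0.09 (SE, limma adjusted p = 0.589) with daidzein against control. Spcs1 differed in the opposite direction with daidzein against control, by -0.14 ± 0.07 (SE, limma adjusted p = 0.604) on the log2 scale, and Spcs3 had a log2 difference of 0.03 ± 0.12 (SE, limma adjusted p = 0.960).

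Other genes of the ER and of the response to its stress differed from list to list, and their medians were not compared with the members' by a test. In 4 lists with 73 tested genes outside the members, the median log2 difference was -0.06 with genistein and 0.04 with daidzein against control and -0.07 between the isoflavones, and 0 were called. Of the 73, 6, 13 and 13 had an unadjusted limma p under 0.05 in the 3 comparisons. These were 8.22%, 17.8% and 17.8% of the 73, beside 11.0%, 8.25% and 9.37% of all probe sets. The list of other ER degradation genes had medians about as far from 0 as the members' with daidzein against control and between the isoflavones. For daidzein against control its median log2 difference was 0.13, that of the stress sensors and the PERK branch 0.04, that of other ER folding genes 0.01 and that of other targeting and translocation genes 0.04. Between the isoflavones these medians were -0.15, -0.07, -0.02 and -0.09 in the same order, and with genistein against control -0.06, 0.08, -0.07 and -0.07. Of 15 tested genes of the stress sensors and the PERK branch, 2 had such a p with genistein against control (1 higher and 1 lower), 2 with daidzein (both higher) and 1 between the isoflavones (lower). Ddit3, which encodes the stress factor CHOP, had log2 differences of -0.03 with genistein and -0.22 with daidzein against control, and Atf4, its activator, -0.05 and 0.02. Eif2ak3, the sensor PERK, had log2 differences of 0.08 and 0.03, with limma adjusted p of 0.956 and 0.986. Atf6b, the paralog of Atf6, had a log2 difference of 0.29 ± 0.09 (SE, limma adjusted p = 0.417) with daidzein against control.

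Among 14 tested genes of other ER degradation, 10 were higher with daidzein than in controls and 13 were lower with genistein than with daidzein. Of these 14, 6 had an unadjusted limma p under 0.05 with daidzein against control (42.9%, beside 28.6% of the members), 5 of them higher, and 5 had one between the isoflavones (35.7%, beside 40.5%), all lower. Vcp, the ATPase that pulls chains out of the membrane, had a log2 difference of 0.38 ± 0.11 (SE, limma adjusted p = 0.382) with daidzein against control. Its cofactor gene Nploc4 differed by -0.34 ± 0.09 (SE, limma adjusted p = 0.147) between the isoflavones. In 22 tested genes of other ER folding, 2 had such a p with genistein against control and 3 with daidzein; Ero1a, the oxidase that feeds the disulfide isomerases, had a log2 difference of -0.30 with genistein (limma adjusted p = 0.240). In 22 tested genes of other targeting and translocation the counts were 1 with genistein, 2 with daidzein and 5 between the isoflavones. Dad1 and Rpn1, subunits of the oligosaccharyltransferase, differed by -0.27 and -0.24 on the log2 scale between the isoflavones (limma adjusted p = 0.191 and 0.391). The 15 tested cytosolic and mitochondrial chaperones, which lie outside the ER, had median log2 differences of -0.11 with genistein, 0.03 with daidzein and -0.05 between the isoflavones, with 1, 0 and 3 at an unadjusted limma p under 0.05. Of all probe sets 11.0% had such a p with genistein, 8.25% with daidzein and 9.37% between the isoflavones. No gene of these 5 lists was called.

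The members also varied together among rats of the same diet. After each diet mean was subtracted, the median Pearson correlation over the 15 arrays was 0.20 among the 861 pairs of members and 0.01 among all pairs of tested genes. A correlation above 0.5 was found in 18.2% of member pairs and 5.92% of all pairs. Without daidzein 5 the members' median was 0.16 with 16.1% above 0.5. These are descriptions, since all genes of an array share its RNA, hybridisation and normalization. The pairs of all tested genes were also not matched to the members for brightness. The dimmest member, Uggt1, had a mean log2 level of 1.51, whereas the median of the tested probe sets was 0.91. No equally bright genes were set beside the members, and the part of brightness in these correlations was not tested. The HSP70 and HSP90 system was the most coherent role, with a median of 0.46 over 36 pairs, and Hsp90b1 correlated at 0.94 with Dnajb11 and at 0.89 with Hyou1. Hspa5 correlated most with Manf, at 0.81, and Calr with Pdia6, at 0.89. Dnajb9, Xbp1, Pdia5, Sec63 and P4hb had the lowest medians with the other members, from -0.13 to -0.04. Xbp1 correlated at -0.26 with Hspa5 and at no more than 0.45 with any member. The 10 members whose promoters held a motif had a median correlation of 0.24, the 26 without a match 0.19, and the 6 whose promoter could not be searched 0.14.

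**Figure D5:**
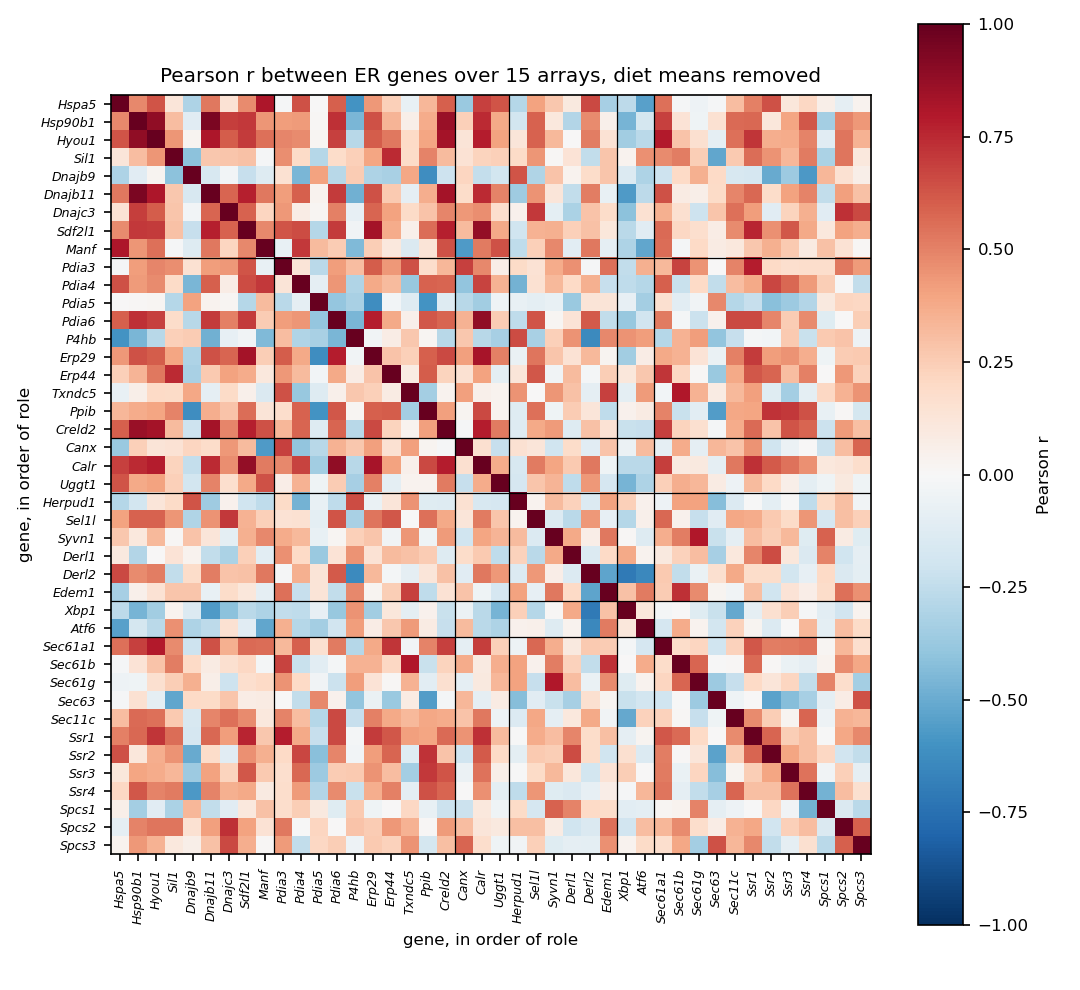
Pearson correlation between members over 15 arrays after subtracting each diet mean, ordered by role. The block of the HSP70 and HSP90 system has a median of 0.46, whereas the rows of Xbp1 and Dnajb9 are mostly near or below 0.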

How the data were processed

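Total RNA of 15 livers was labelled with an Affymetrix one-cycle kit, per the labels' protocols, and read on 1-channel arrays. The unit of the values that the authors deposited is a score, a standardized log signal for 31099 probe sets. The background correction and summarisation are steps not given in the sources used here. Log2 or linear signal was assumed in the design, so the test kept was limma on a rebuilt scale. Values were multiplied by a common factor, 2.60 log2 units per deposited unit, the mean of factors inferred array by array; with each array's own factor all 636 distances tested between recurring values came out whole within 0.01. Array medians of the deposited score ranged from 0.00111 to 0.127, over the limit of 0.1, so arrays were quantile normalized. Tests left out 57 control probe sets and those whose mean level was under the 40th percentile.

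A 3-diet model was fitted with limma 3.58.1 in R 4.3.3 (lmFit, eBayes; 12 residual and 2.58 prior degrees of freedom), and adjusted p is Benjamini-Hochberg over 18625 probe sets, called at 0.05. The number of arrays limits the precision, and p-values measure the spread between these arrays. The steps were tested on simulated data. Per-array values are given for up to 12 members of lowest unadjusted p under 0.05 or without overlap, plus Hspa5, Hsp90b1, Xbp1, Atf6, Calr, Canx, P4hb and Sec61a1, and all others may be named with differences. In each other pathway list, genes named were among the 2 of lowest p per comparison, besides Ddit3, Atf4 and Eif2ak3. Members and lists were chosen with earlier results of these data known. Arrays with the same title number were checked for pairing on the residuals: 1 of 15 pairs correlated above 0.1 (r from -0.163 to 0.109), and by the numbers in the descriptions 0 of 8 did. Alternatives left out each array, and changed the normalization, the background, the filter, the arrays in the fit, the block and the probe set per gene. Protein features of the members were not analysed here.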

Additional observations from a re-analysis of the deposited data

Results flagged for a closer look

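Dixon's test at the 95% level was applied to each diet's 5 arrays for the 42 members and 6 pancreatic markers, 144 groups in all. An array stood apart in 12 groups, some of them sharing the same array, where chance gives about 1 in 20 groups. Of these 12, 5 were among the 126 groups of members, a share under 1 in 20. The pancreatic list was the only marker list examined in this way. Daidzein 5 is described above as high in all 6 of its markers, and its flags there repeat that description. P4hb had a log2 level of 6.56 in daidzein 1, below the other daidzein arrays (6.87 to 6.95). Ppib stood at 6.83 in daidzein 2, above the others of its diet (6.47 to 6.57). Uggt1 stood at 1.56 in genistein 4, where the others lay between 1.04 and 1.12. Derl1 had a log2 level of 4.71 in control 3, below the other controls (4.86 to 4.91). Sec11c stood at 3.16 in genistein 5, above the others of its diet (2.92 to 2.97).

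The other 7 concerned pancreatic genes, which are not members, though 5 of the 6 markers passed the filter and were among the probe sets tested. In daidzein 5 the log2 level was 7.59 for Prss1, 5.91 for Cpa1, 5.86 for Cela1, 5.63 for Cel, 6.93 for Pnlip and 7.15 for Amy2a3. The highest level of each in the other 14 arrays was 0.47 for Prss1, 0.52 for Cpa1, 3.33 for Cela1, 0.68 for Cel, 0.52 for Pnlip and 0.48 for Amy2a3. Amy2a3 also stood apart in control 5, at 0.48, among controls between -1.87 and -1.23.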

How the results depend on the processing

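With genistein against control, 0 of 42 members were called, and Sec11c alone was called under 2 alternatives, with 16 added to the intensities (1 member, limma adjusted p = 0.0493) and without control 2 (1 member, limma adjusted p = 0.0444), so leaving out single arrays gave 0 to 1. No alternative called a member in the other 2 comparisons; unadjusted p under 0.05 was found for 6 to 13 members with daidzein against control and for 12 to 19 between the isoflavones, and the former was 8 without quantile normalization and 8 without the filter. With the replicate block of title numbers, 0 members were called in each comparison and 5, 10 and 16 had an unadjusted limma p under 0.05. Among all probe sets, 17, 2 and 2 were called. The block is an alternative because the labels do not say that the numbers pair animals. The median over the members kept its direction under every alternative run, from -0.11 to -0.06 for genistein against control, 0.08 to 0.16 for daidzein against control and -0.25 to -0.15 between the isoflavones. Of 1254 values of 19 named members under the alternatives, 24 changed sign, of which the largest had a size of 0.10 as reported. Many of these values, and some of the medians, could change little or not at all. Dropping the filter, fitting only the 2 diets compared and adding the block alter p and leave the differences as they were. Leaving out an array of the diet not compared acts only through the normalization. Averaging probe sets changes nothing for a gene with a single one. Canx had a log2 difference between the isoflavones of -0.02 without quantile normalization and -0.04 as the mean over its probe sets, and Atf6 with genistein against control 0.04 as such a mean; the cause was not tested. With 5 arrays per diet the median standard error of a member was 0.10 log2 units.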
